A study of Mus musculus with 12 samples.

Results

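This report describes resting gene expression in mouse peritoneal macrophages, as measured by RNA sequencing of 3 untreated libraries out of the 12 in the series. The libraries were chosen by their label alone: they are the controls that received neither Remodelin hydrobromide, an inhibitor of the RNA acetyltransferase NAT10, nor interferon gamma. The series title sets these cells in a study of N4-acetylcytidine (ac4C), the RNA mark written by NAT10, in liver cancer. The other 9 libraries, 3 for each treatment alone and 3 for both, were not used here. The cells were primary macrophages from the peritoneal cavity, kept in culture in serum-containing medium with antibiotics. The sources used here do not give the mouse strain, age or sex, the way the cells were elicited or collected, or the time in culture. Nothing in the labels says that the 3 libraries came from separate animals or cultures, so the spread between them may be technical.

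Macrophages are phagocytes that engulf particles and dying cells, digest them in lysosomes and sense microbes through surface and intracellular receptors. In the mouse peritoneum, large resident macrophages depend on the transcription factor GATA6 and carry high F4/80 (Adgre1), whereas small macrophages derive from monocytes and carry MHC class II. Macrophage identity rests on the transcription factor PU.1 (Spi1), and many tissue macrophages depend on signalling through the CSF1 receptor (Csf1r). Levels below are the authors' FPKM values, fragments scaled to gene length and library size, which allow genes to be compared per length. A gene is called expressed where it reached 1 FPKM in each of the 3 libraries, and absent where no read was counted in any of them. No treatment comparison and no test between groups was made.

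The libraries held 17998297, 19418665 and 19116655 counted reads, and 17808 to 18085 genes had at least 1 read in each. A floor of 3 reads corresponded to 0.154 to 0.167 CPM (counts relative to library size), a limit that covers counting error alone, because PCR copies of a molecule could not be recognised. Library 1 stood apart from the others. Its log2(FPKM + 1) levels correlated with those of libraries 2 and 3 at Pearson's r of 0.988 and 0.988 across the 8218 expressed protein-coding genes, against 0.995 between libraries 2 and 3, with genes being no independent replicates. The counts of every pair of libraries differed by more than sampling alone, which does not tell separate cultures from repeated preparations. Their chi-square per degree of freedom was 33.3, 41.6 and 22.8 for pairs 1 and 2, 1 and 3, and 2 and 3. Sampling alone gives about 1. Most levels are therefore given by library, and the median of the spread is given with and without library 1.

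Of 21884 protein-coding genes, 8218 were expressed, which is 37.6%, and 447, or 2.04%, reached 100 FPKM in every library. Over all 55586 genes of the table, most of them non-coding or pseudogenes, 9021 were expressed (16.2%). No read fell in any library on 6913 protein-coding genes, which is 31.6% of them. A further 825 protein-coding genes reached 1 FPKM in some but not all libraries. The median expressed protein-coding gene stood at a mean of 6.91 FPKM, and 52 protein-coding genes had a mean of 1000 FPKM or more. The 10 protein-coding genes just above the threshold had means of 1.00 to 1.004 FPKM and the 10 just below it 0.995 to 0.9996 FPKM, and the mean reads behind these 20 genes ran from 16.3 to 167 per library. Of 9949 long non-coding RNA genes, 132 were expressed.

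**Figure D1:**
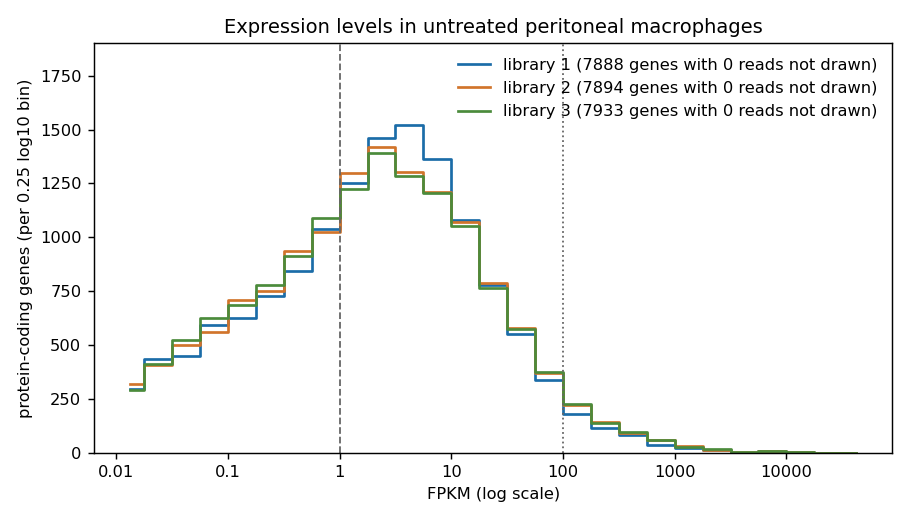
Number of protein-coding genes per bin of FPKM (log scale) in each untreated library. The dashed line marks 1 FPKM and the dotted line 100 FPKM; the 3 curves peak between 1 and 10 FPKM, and 7888 to 7933 genes with no read in the library are not drawn.

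The leading transcripts encoded lysosomal enzymes, iron storage proteins, galectins and ribosomal proteins. Lyz2, the macrophage lysozyme, stood at 10242, 16053 and 15175 FPKM in libraries 1, 2 and 3, a mean of 13823 ± 3132 (SD, n = 3). Ftl1, the ferritin light chain, stood at 12072, 12554 and 16811 FPKM, with a mean of 13812 ± 2608. The library ranges of these leaders overlapped, and Ftl1 was above Lyz2 in libraries 1 and 3, so their order is not separated. Ftl1 exceeded Fth1, the ferritin heavy chain at 5856, 6933 and 7818 FPKM, by 1.81 to 2.15 times within each library, and both chains together took 4.26 ± 0.466% of all reads. Ctsd, the aspartic protease cathepsin D, followed at 7044, 10084 and 9216 FPKM, below every library of Lyz2 and Ftl1.

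Galectin 3 (Lgals3) and galectin 1 (Lgals1), which bind beta-galactoside sugars, stood at 5985, 8569 and 8411 FPKM and at 5676, 8674 and 7727 FPKM, both lowest in library 1. Psap, the precursor of the saposins that activate lysosomal lipid hydrolases, was the steadiest of the leaders, at 6830, 7099 and 6408 FPKM. Tyrobp, the adaptor DAP12 that carries signals for TREM2 and other activating receptors, was the least steady, at 2962, 5862 and 4094 FPKM. Gpnmb, a transmembrane glycoprotein of lysosome-rich macrophages, stood at 3086, 3519 and 2901 FPKM, and this 1 gene took 2.09 ± 0.231% of all reads. The other members of the leading 20 were the cysteine proteases Ctsz, Ctss and Ctsb, the protease inhibitors Cstb and Cst3, the NADPH oxidase subunit Cyba, the actin-binding Tmsb10, and the ribosomal proteins Rplp1, Rpl41, Rpl36 and Rps15.

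Of the 19 neighbouring pairs in this order, 17 had overlapping library ranges, so most ranks within the 20 are not separated. In FPKM, library 1 was the lowest library for 18 of the 20 and the highest for none. This count depends on the FPKM constant, which was 1.12 times the counted total in library 1, and 0.957 and 0.964 times in libraries 2 and 3. By share of reads, Lyz2 (1.51, 2.02 and 1.93%) and Fth1 (2.27, 2.30 and 2.62%) were also lowest in library 1. Psap (2.09, 1.86 and 1.70%) and Gpnmb (2.25, 2.19 and 1.82%) were highest there. The 100 genes with the highest mean FPKM took 34.8 ± 2.13% of reads (32.4, 35.5 and 36.5% in libraries 1, 2 and 3). Ferritin and ribosomal protein genes have many near-identical processed copies in the genome, and their levels are uncertain to the extent that reads were divided among copies.

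**Figure D2:**
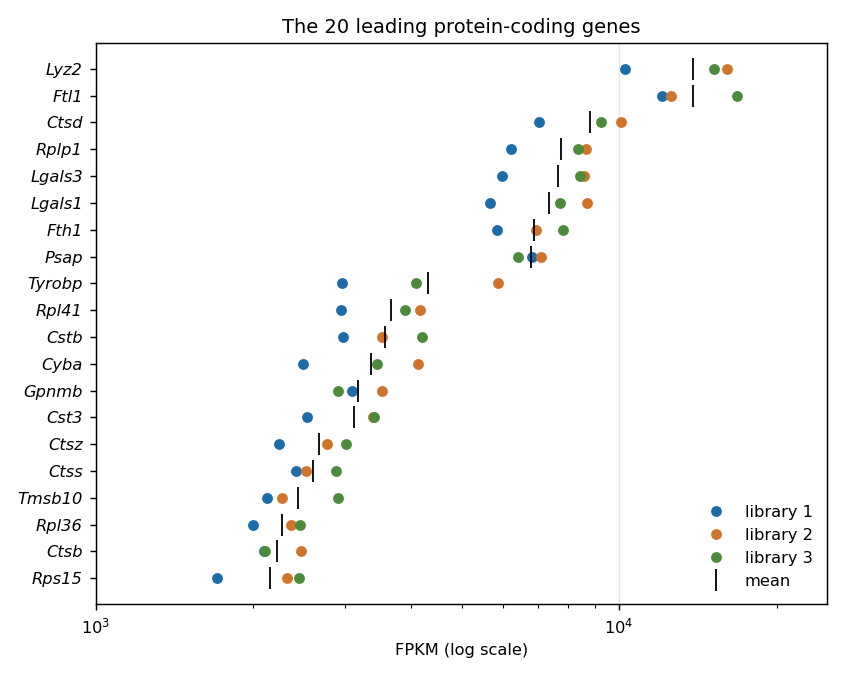
FPKM (log scale) of the 20 leading protein-coding genes, 1 point per untreated library and a bar for the mean. Lyz2 and Ftl1 stand above Ctsd in every library, and library 1 is the lowest in FPKM for 18 of the 20 genes.

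The 4 markers that define the cells as macrophages were all expressed. Cd68, a lysosomal membrane sialomucin, stood at 1195, 1420 and 1266 FPKM. Adgre1, the gene of F4/80, stood at 48.6, 52.2 and 49.1 FPKM (mean 50.0 ± 1.95). Csf1r stood at 36.6, 35.7 and 32.1 FPKM (mean 34.8 ± 2.40). Cd68 was 24.6 to 27.2 times Adgre1 within each library. Of 24 further general macrophage genes, 23 were expressed (95.8%, against 37.6% of all protein-coding genes). The exception was the fractalkine receptor Cx3cr1, at 0.110, 0.239 and 0.0963 FPKM. In every library 13 of the 24 reached 100 FPKM, against 2.04% of all protein-coding genes. The lowest expressed members were Ptprc and Aif1, with means of 3.10 and 2.06 FPKM. Lyz1, the Paneth cell lysozyme beside Lyz2 in the genome, stood at 32.6, 63.4 and 52.8 FPKM, and Lyz2 was 253 to 314 times higher. Reads shared by these near-identical genes cannot be assigned with certainty.

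Genes of large resident peritoneal macrophages ranged from abundant to scarce. Of 27 such genes, 13 were expressed, which is 48.1% against 37.6% of all protein-coding genes. The tetraspanin Cd9 led at 388, 415 and 393 FPKM. Behind it came Saa3, an acute-phase apolipoprotein (138, 211 and 194 FPKM), and Pf4, a platelet-type chemokine (82.2, 99.1 and 109 FPKM). Fibronectin (Fn1: 69.8, 38.1 and 36.0 FPKM) and F10, coagulation factor X (39.7, 48.2 and 52.7 FPKM), followed with overlapping ranges. By contrast, Gata6 itself stood at only 2.95, 2.31 and 2.13 FPKM. The apoptotic cell receptor Timd4 had 2 reads in library 1 and none elsewhere. Alox15, the 12/15-lipoxygenase of resident cells, stood at 0.0203, 0.241 and 0.155 FPKM, and Selp, the adhesion receptor P-selectin, at 0.237, 0.220 and 0.0983 FPKM. Rarb, a retinoic acid receptor, stood at 0.179, 0.143 and 0.144 FPKM, and Car4, a carbonic anhydrase, had no read.

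Genes of small peritoneal macrophages and monocytes also covered a wide range of levels, with 10 of 20 expressed (50%, against 37.6% of all protein-coding genes). Itgax, the integrin CD11c, led at 103, 93.8 and 80.1 FPKM and was 5.30 to 6.75 times Itgam, the integrin CD11b, which stood at 19.4, 13.9 and 14.2 FPKM. Cd74, the invariant chain of MHC class II, stood at 55.9, 58.1 and 55.3 FPKM. The class II chain H2-Ab1 stood at 19.6, 29.0 and 27.2 FPKM, whereas Ciita, the master activator of class II genes, stood at 0.2503, 0.181 and 0.171 FPKM. Among monocyte genes, the chemokine receptor Ccr2 stood at 0.0368, 0.103 and 0.0883 FPKM and Ly6c2 at 0.127, 0.255 and 0.0594 FPKM. In bulk RNA, few cells of a type and little RNA per cell cannot be told apart.

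Genes tied to macrophage activation states were unevenly expressed, 11 of 20 (55.0%, against the same 37.6%). Spp1, the matrix phosphoprotein osteopontin, stood at 806, 819 and 891 FPKM. Hmox1, haem oxygenase 1, stood at 197, 209 and 226 FPKM. The mannose receptor Mrc1 (17.5, 11.7 and 10.6 FPKM) and arginase Arg1 (4.26, 5.60 and 6.28 FPKM), both raised by IL-4, were at intermediate and low levels. Nos2, the inducible nitric oxide synthase of interferon-activated macrophages, had no read in any library, and 3 reads would have been 0.0355 FPKM. Acod1, the itaconate-producing enzyme, stood at 0.152, 0.205 and 0.269 FPKM, and Ptgs2, cyclooxygenase 2, at 0.119, 0.153 and 0.0592 FPKM. Thus Gpnmb, Spp1 and Hmox1 were above 100 FPKM in every library while the inflammatory enzymes were below 1 FPKM in each.

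Markers of other cell types were mostly low, and mesothelial and fibroblast genes were the most represented. Of 14 mesothelial genes, 8 were expressed (57.1%, against 37.6% of all protein-coding genes). The summed level of the 14 was 56.0, 76.4 and 61.5 FPKM in the 3 libraries. Igfbp6 led at 18.5, 32.4 and 25.8 FPKM, followed by Upk3b, a mesothelial uroplakin, at 11.1, 16.7 and 11.4 FPKM. Wt1, the transcription factor of mesothelium, stood at 3.04, 2.21 and 2.65 FPKM. Gata6 was 0.804 to 1.05 times Wt1 within each library, and Gata5, also a mesothelial gene, stood at 2.17, 2.81 and 2.12 FPKM. The part of mesothelial RNA in the Gata6 level was not tested. Of 12 fibroblast genes, 8 were expressed (66.7%, against the same 37.6%), and the summed level of the 12 was 175, 166 and 149 FPKM. Among these, Pdpn, podoplanin, which macrophages also make, led at 69.7, 86.9 and 80.6 FPKM, and the collagen Col1a1 stood at 29.2, 16.6 and 14.99 FPKM.

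Few lymphoid and granulocytic markers were expressed, in each list a smaller share than the 37.6% of all protein-coding genes. Of 12 B cell genes 3 were expressed (Ighm at 5.40, 7.28 and 6.67 FPKM, Cd79b and Cd79a). Of 12 T cell genes only Cd28 was expressed, and Cd3e had no read. None of 8 natural killer genes was expressed, and 5 of them had no read. Of 10 neutrophil genes, S100a8, a calgranulin, stood at 20.7, 29.7 and 31.7 FPKM and Csf3r at 6.87, 7.56 and 6.06 FPKM, while Ly6g and Ngp had no read. S100a8 exceeded its partner S100a9 by 24.0 to 33.8 times. Of 8 mast cell genes, Tpsb2 and Cma1 were expressed at up to 1.55 FPKM. No gene of the dendritic cell (8), endothelial (8), eosinophil (6) or adipocyte (6) lists was expressed.

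Haemoglobin reads came from library 2, apart from 1 read in library 1. The haemoglobin gene Hbb-bs stood at 0.0647, 9.25 and 0 FPKM, and Hba-a1 at 0, 6.56 and 0 FPKM. In the hepatocyte list 7 of 8 genes had no read, Alb and Apoa1 among them. Trf, transferrin, the remaining gene of that list, stood at 49.7, 52.2 and 44.2 FPKM. Of 10 neuron and muscle genes only Tubb3 was expressed, at 3.41, 5.24 and 4.65 FPKM.

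**Figure D3:**
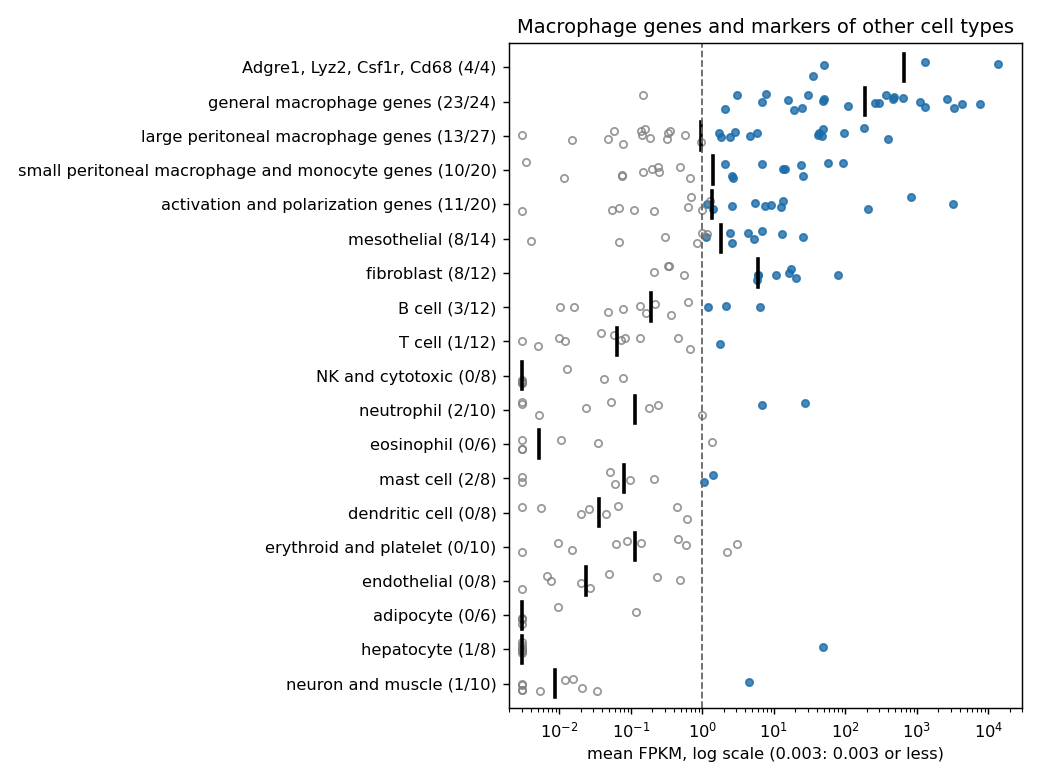
Mean FPKM over the 3 untreated libraries (log scale) of every member of the macrophage and other-cell lists. Filled points are expressed genes, open points are not, black bars are list medians, the dashed line is 1 FPKM, and the numbers give expressed over measured members; mesothelial and fibroblast genes are the other-cell lists with the most expressed members.

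Toll-like receptors, which bind microbial products, were present at low levels except for 1 member. Of 12, 7 were expressed (58.3% against 37.6% of all protein-coding genes), and none reached 100 FPKM. Tlr13, the endosomal sensor of bacterial ribosomal RNA, stood at 24.7, 27.6 and 18.6 FPKM. The next, Tlr1, stood at 4.76, 3.96 and 3.99 FPKM, so Tlr13 was above every other member in every library. Tlr6, Tlr8, Tlr7, Tlr2 and the endotoxin receptor Tlr4 (2.49, 2.63 and 1.74 FPKM) had means of 2.29 to 2.81 FPKM with overlapping library ranges. Tlr9, the DNA sensor, crossed the threshold in library 1 only (1.43, 0.913 and 0.795 FPKM), Tlr3 stood at 0.420, 0.248 and 0.198 FPKM, and Tlr12 had no read.

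The proteins that serve these receptors were higher. Of 14 partners and adaptors 13 were expressed (92.9%, against 37.6% of all protein-coding genes). Their median was 10.6 FPKM, against 2.48 FPKM for the receptors. Unc93b1, the chaperone of the endosomal receptors, stood at 110, 130 and 117 FPKM. Cd14, the endotoxin co-receptor, stood at 41.1, 50.8 and 55.9 FPKM, and the adaptor Myd88 at 17.9, 20.4 and 21.6 FPKM. Of 28 cytosolic sensors and inflammasome genes 15 were expressed (53.6%). Pycard, the inflammasome adaptor ASC, led at 27.8, 46.8 and 39.7 FPKM, followed by Sting1, the adaptor of cyclic dinucleotide sensing, at 11.2, 13.9 and 12.7 FPKM. Nlrp12 and Nlrp6 had no read.

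Receptors for antibodies, complement and particles included abundant transcripts. Among 14 Fc receptor genes, 8 were expressed (57.1%, against 37.6% of all protein-coding genes). Fcer1g, the common signalling chain, stood at 541, 689 and 669 FPKM, above Fcgr3, a low-affinity IgG receptor at 317, 388 and 404 FPKM, in every library. Fcgr4 followed at 83.5, 99.8 and 109 FPKM. The inhibitory Fcgr2b (19.6, 19.8 and 22.1 FPKM) and the high-affinity Fcgr1 (18.2, 18.6 and 20.8 FPKM) had overlapping ranges. Of 10 complement receptor genes, 7 were expressed, led by the integrin chain Itgb2 at 509, 497 and 428 FPKM. All 6 neighbours in the order Itgb2, Itgax, C3ar1, Cd93, C5ar1, Itgam and Cr1l were separated, with no overlap of library ranges. Vsig4, the complement receptor of resident macrophages, stood at 0.871, 0.943 and 1.02 FPKM.

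Among 29 scavenger and apoptotic cell receptors 21 were expressed (72.4%, against 37.6% of all protein-coding genes). Cd36, which takes up oxidised lipoproteins and fatty acids, led at 208, 233 and 175 FPKM. Lrp1, an endocytic receptor with a very long transcript, stood at 103, 62.0 and 53.9 FPKM, its highest value in library 1. The kinases Axl (13.4, 13.6 and 13.1 FPKM) and Mertk (9.22, 5.06 and 6.10 FPKM), which recognise apoptotic cells, were expressed, whereas the haemoglobin scavenger Cd163 stood at 0.0819, 0.0788 and 0.0894 FPKM. Of 23 C-type lectin receptors 14 were expressed (60.9%). Clec4d stood at 184, 279 and 273 FPKM, Clec2d at 128, 138 and 165 FPKM, and the beta-glucan receptor Clec7a at 68.0, 105 and 80.7 FPKM.

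Among 32 immunoreceptors with activating or inhibitory motifs 19 were expressed (59.4%, against 37.6% of all protein-coding genes). In every library 5 of them reached 100 FPKM. Below Tyrobp came Trem2, a lipid-sensing receptor that signals through it, at 360, 509 and 504 FPKM. Trem1, the amplifier of inflammation that uses the same adaptor, stood at 0.0830, 0.108 and 0.0362 FPKM. Sirpa, which receives the CD47 signal, stood at 198, 201 and 182 FPKM, and Vsir, the checkpoint protein VISTA, at 131, 163 and 148 FPKM. Siglech, a marker of plasmacytoid dendritic cells, had no read.

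Of 61 cytokine receptor genes 31 were expressed (50.8%, against 37.6% of all protein-coding genes). Il11ra1, the interleukin 11 receptor alpha chain, had the highest mean but a wide spread, at 85.2, 178 and 129 FPKM. The tumour necrosis factor receptors Tnfrsf1b (101, 112 and 99.4 FPKM) and Tnfrsf1a (63.4, 74.1 and 65.7 FPKM) followed. The chains of the GM-CSF receptor, Csf2rb (65.5, 61.6 and 54.4 FPKM) and Csf2ra (60.9, 57.8 and 44.5 FPKM), stood above Csf1r, and Csf2ra was 1.39 to 1.66 times Csf1r within each library. Both chains of the receptor for interferon gamma were expressed: Ifngr2 stood at 45.3, 69.0 and 56.5 FPKM and Ifngr1 at 24.5, 22.2 and 23.1 FPKM, a ratio of 1.85 to 3.11. No read fell on 8 members, among them Il13ra2, Il20ra, Il23r, Il31ra, Il5ra, Lepr and Prlr. Of the 30 neighbouring pairs among expressed members, 26 had overlapping ranges.

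Chemokine receptors were the sparsest of the immune receptor lists described here, with 5 of 24 expressed (20.8%, against 37.6% of all protein-coding genes). Ccr1, a receptor for Ccl3 and related chemokines, stood at 32.1, 44.6 and 35.6 FPKM, and Ccrl2, an atypical receptor, at 31.2, 39.0 and 33.1 FPKM, with overlapping ranges. Cxcr4, the receptor of Cxcl12, stood at 26.2, 19.6 and 27.9 FPKM. Cxcr1, an interleukin 8 type receptor, stood at 2.87, 3.83 and 1.78 FPKM, and Ccr1l1, Ccr4, Ccr8 and Cxcr6 had no read. Among 55 receptors for nucleotides, adenosine and lipid mediators 17 were expressed (30.9%, against the same 37.6%). The ATP-gated channel P2rx4 (57.4, 70.4 and 73.4 FPKM) and Ptafr, the platelet-activating factor receptor (64.4, 60.7 and 64.6 FPKM), led without separating from each other.

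**Figure D4:**
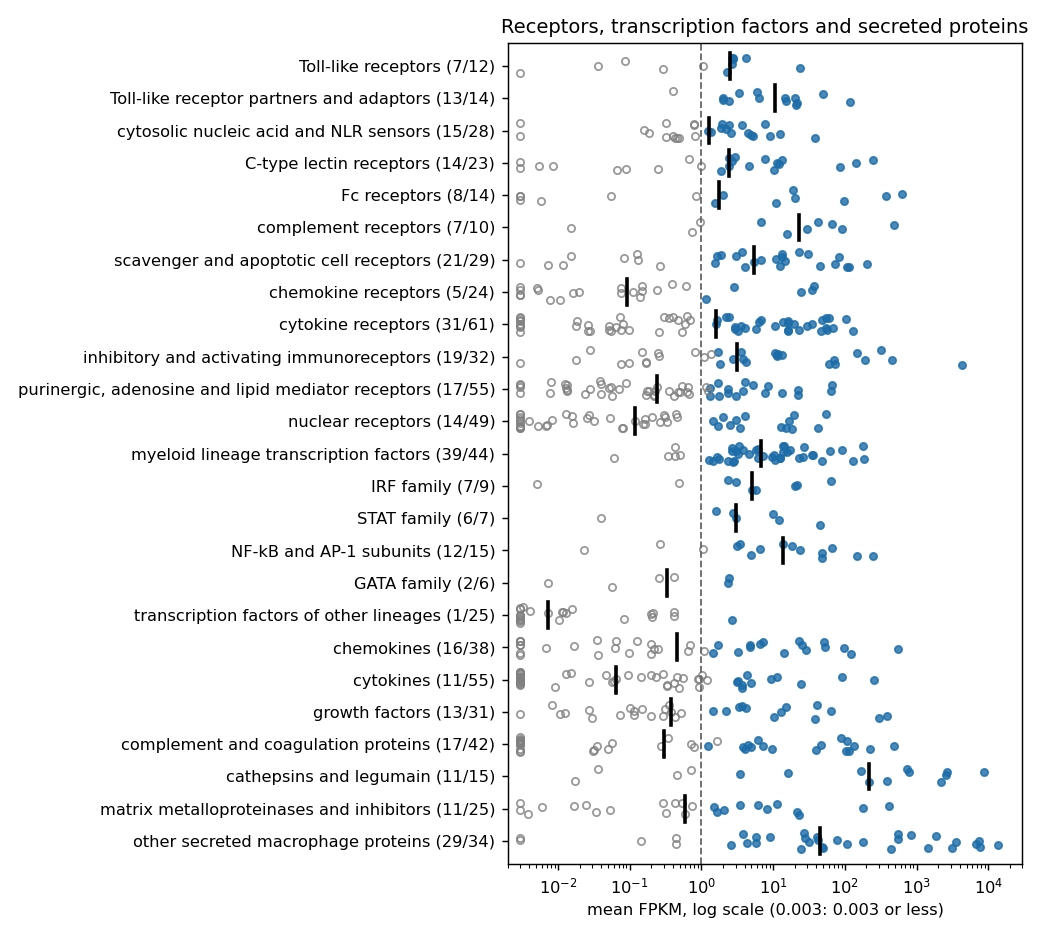
Mean FPKM over the 3 untreated libraries (log scale) of every member of the receptor, transcription factor and secreted protein lists. Filled points are expressed genes, open points are not, black bars are list medians, the dashed line is 1 FPKM, and the numbers give expressed over measured members; cathepsins have the highest median, and transcription factors of other lineages have 1 expressed member of 25.

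The transcription factors of the myeloid lineage were nearly all expressed, 39 of 44 (88.6%). Over all genes with an annotated transcription factor family the share was 26.8%, and the list was chosen with earlier results of these data known. Spi1, the gene of PU.1, stood at 151, 206 and 190 FPKM. Cebpa, a factor that works with PU.1 in myeloid cells, matched it at 148, 209 and 188 FPKM. Cebpb, which is induced in inflammatory and alternative activation, stood at 114, 124 and 155 FPKM. The library ranges of all these overlapped, but within each library Cebpb was below both, and Cebpa was 1.22 to 1.68 times Cebpb. Of the 25 factors of other lineages, Wt1 alone was expressed, and 10, including Sox2, Pou5f1, Myod1 and Tbx21, had no read.

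Interferon regulatory factors were expressed in 7 of 9 cases (77.8%, against 26.8% of all genes with an annotated transcription factor family). Irf5, which drives inflammatory polarisation, led at 60.5, 63.6 and 66.5 FPKM and was separated from all others. Irf8 (19.7, 24.0 and 20.9 FPKM) and Irf3 (14.8, 23.4 and 22.6 FPKM) overlapped. Irf1 (4.65, 4.87 and 5.66 FPKM) and Irf7 (2.40, 3.19 and 3.46 FPKM), both interferon-induced, were lower, and Irf4 stood at 0.548, 0.417 and 0.498 FPKM. Among 7 STAT genes 6 were expressed (85.7%), and Stat6, the IL-4 signal transducer, led at 42.4, 52.2 and 41.7 FPKM. Stat3, which carries signals of the IL-6 and IL-10 families, followed at 13.4, 11.1 and 11.2 FPKM. Stat4, a lymphoid member, stood at 0.0770, 0 and 0.0420 FPKM.

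Of 15 NF-kB and AP-1 subunits and relatives, 12 were expressed (80%, against 26.8% of all genes with an annotated transcription factor family). Atf3, a stress-induced repressor, led at 220, 272 and 247 FPKM and Atf4, the factor of the integrated stress response, followed at 130, 157 and 159 FPKM. Rela stood at 24.0, 24.5 and 22.4 FPKM. Atf3, Junb and Jun also belong to a list of 16 genes that respond to cell handling. Of these 16, 12 were expressed (75%, against 37.6% of all protein-coding genes), and the part of handling in these levels was not tested. Of 49 nuclear receptors 14 were expressed (28.6%, near that 26.8%). The oxysterol receptors Nr1h3 (LXR alpha: 40.9, 65.1 and 60.2 FPKM) and Nr1h2 (LXR beta: 34.4, 49.5 and 42.1 FPKM) led, with Nr1h3 the higher by 1.19 to 1.43 times within each library. Their partner Rxra stood at 18.9, 20.4 and 19.9 FPKM and the lipid regulator Pparg at 14.1, 15.2 and 16.1 FPKM. No read fell on Esr2, Esrrb, Hnf4g, Nr0b1, Nr1h5, Nr2e1, Nr5a2 or Rorb.

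The deposited annotation assigns 1533 genes to 77 transcription factor families, and 411 of these were expressed (26.8%), 9 of them at 100 FPKM or more in every library. Basic leucine zipper factors were expressed in 35 of 53 cases (66.0%) and ETS factors in 16 of 27 (59.3%). Homeobox genes, which pattern the embryo, were expressed in 11 of 225 cases (4.89%), and 127 of them had no read. None of 17 T-box, 15 Pou or 9 PAX genes was expressed. Zinc finger genes of the C2H2 class, the largest family, were expressed in 128 of 609 cases (21.0%). The highest members of any family were the cold-shock protein Ybx1 (320, 313 and 376 FPKM) and the chromatin protein Hmga1 (222, 297 and 272 FPKM).

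Secreted proteins divided between digestive enzymes and signalling proteins. Of 15 cathepsins and legumain 11 were expressed and 9 reached 100 FPKM in every library. The 14 cathepsins took 4.96 ± 0.187% of all reads. Ctsd was above every other member in every library and 3.35 to 4.36 times Ctsb. Legumain (Lgmn), an asparaginyl protease, stood at 719, 788 and 856 FPKM, and Ctsk, the collagen-degrading cathepsin of osteoclasts, at 204, 219 and 239 FPKM. Among 25 matrix metalloproteinases and their inhibitors 11 were expressed (44.0%, against 37.6% of all protein-coding genes). Mmp12, the macrophage elastase, stood at 348, 459 and 414 FPKM and was 48.9 to 88.6 times Mmp9. Timp2, an inhibitor, stood at 171, 181 and 190 FPKM.

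Chemokines were expressed in 16 of 38 cases (42.1%, near the 37.6% of all protein-coding genes). Ccl6 led at 448, 644 and 582 FPKM and was separated from the next, Ccl9, at 97.7, 126 and 146 FPKM. Both belong to the mouse monocyte-attracting chemokines of macrophages. Ccl2, the ligand of Ccr2, stood at 43.3, 56.1 and 60.9 FPKM, and Ccl3 at 46.9, 57.2 and 50.8 FPKM, with overlapping ranges. The interferon-induced Cxcl11 had no read, as had Ccl1, Ccl19, Ccl21a, Ccl26, Cxcl15 and Cxcl17.

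Cytokines were the sparsest secreted list, with 11 of 55 expressed (20%, against 37.6% of all protein-coding genes). Another 20 of the 55 had no read, where 31.6% of all protein-coding genes had none. Mif, macrophage migration inhibitory factor, led at 210, 284 and 266 FPKM. Tnfsf12, the TWEAK ligand, stood at 77.8, 105 and 93.8 FPKM, and Il1rn, the interleukin 1 receptor antagonist, at 22.6, 23.2 and 28.1 FPKM. Tnf stood at 3.31, 3.58 and 2.81 FPKM. Il1b, one of the strongest transcripts of activated macrophages, had 0, 4 and 2 reads, while its relative Il1a stood at 5.21, 4.64 and 5.03 FPKM. Il10 stood at 0.3796, 0.247 and 0.373 FPKM. No read fell on Il6, Il12a, Il23a, Ifnb1, Ifng or Csf2, and for Il6 a count of 3 reads would have been 0.0649 FPKM.

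Growth factors were expressed in 13 of 31 cases (41.9%, near the 37.6% of all protein-coding genes). Grn, progranulin, stood at 406, 409 and 356 FPKM, and Metrnl, a meteorin-like hormone, at 244, 304 and 364 FPKM. Tgfb1 stood at 64.7, 68.5 and 60.0 FPKM. Of 42 complement and coagulation genes 17 were expressed (40.5%, also near that share). Another 14 of the 42 had no read, where 31.6% of all protein-coding genes had none. Among these 14 were the liver products C9, F2, Fga, Fgb, Fgg and Mbl2. C1qb led at 368, 599 and 506 FPKM, above its partner chains C1qc and C1qa by 3.69 to 4.78 and by 4.24 to 5.35 times. F7, coagulation factor VII, stood at 201, 231 and 232 FPKM, and Plaur, the urokinase receptor, at 118, 151 and 134 FPKM. Among other secreted macrophage proteins 29 of 34 were expressed. Apoe, the lipid carrier apolipoprotein E, stood at 1642, 2042 and 1894 FPKM.

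Several large gene families had few or no expressed members. Of 1412 olfactory receptor genes, 1391 had no read and none was expressed. Of 590 vomeronasal receptor genes 583 had no read, and all 45 alpha-defensin genes of Paneth cells had none. Cytochrome P450 genes, enzymes of drug and steroid oxidation, were expressed in 9 of 100 cases, against 37.6% of all protein-coding genes. Claudins, the proteins of epithelial tight junctions, were expressed in 1 of 31 cases, which was Cldn12, and potassium channel genes in 6 of 94.

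Promoter sequence was set beside these levels for 14068 protein-coding genes with a single entry in the RefSeq promoter table (GRCm38.p6), by a search of the 250 bases before the start on both strands. The motifs were GAGGAAGT, a core recognised by PU.1, TATAAA, and TGACGTCA, the cyclic AMP response element, and none of them contains another. TATAAA lay in 12.98% of all promoters, in 10.1% of those of genes at 100 FPKM or more, 5.54% of those from 1 to under 100 FPKM and 24.5% of those without a read. The median number of CG dinucleotides was 15, 17 and 2 in the same order, and 10 over all promoters. GAGGAAGT lay in 2.17% of all promoters, 1.31% at 100 FPKM or more, 2.88% from 1 to under 100 FPKM and 1.52% without a read. TGACGTCA lay in 2.04% of all, 2.94%, 2.84% and 0.836%. Of 31 expressed macrophage identity genes with an entry, 2 held GAGGAAGT, namely Pf4 and Retnla. These matches are descriptions of the letters and not of binding.

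The sequences below show 250 bases before the start for 3 expressed genes and 2 silent cytokine genes, 5′ to 3′ in the direction of transcription, with matches in capitals. Pf4 (chr5:90772185-90772434, + strand) and Mmp12 (chr9:7344147-7344396, + strand, the first of its 2 entries) hold the PU.1 core as its reverse complement. The second Mmp12 entry (chr9:7347124-7347373, + strand) holds none of the motifs. With 2 entries, Mmp12 is not among the genes behind the shares above. Cebpa (chr7:35119043-35119292, + strand) and Ifng (chr10:118440796-118441045, + strand) both hold TATAAA from 30 to 25 bases before the start, although Cebpa had a mean of 182 FPKM and Ifng no read. Il6 (chr5:30012864-30013113, + strand), also without a read, holds none of the motifs in this window.
Pf4: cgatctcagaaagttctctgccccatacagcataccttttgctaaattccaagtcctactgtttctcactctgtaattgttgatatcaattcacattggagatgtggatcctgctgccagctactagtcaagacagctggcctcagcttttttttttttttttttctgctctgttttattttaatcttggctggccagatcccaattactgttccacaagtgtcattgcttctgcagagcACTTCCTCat
Mmp12: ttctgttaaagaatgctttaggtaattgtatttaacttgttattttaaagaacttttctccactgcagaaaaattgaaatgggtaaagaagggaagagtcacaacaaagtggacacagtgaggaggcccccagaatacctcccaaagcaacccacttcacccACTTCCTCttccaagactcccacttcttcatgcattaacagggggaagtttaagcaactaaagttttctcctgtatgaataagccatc
Cebpa: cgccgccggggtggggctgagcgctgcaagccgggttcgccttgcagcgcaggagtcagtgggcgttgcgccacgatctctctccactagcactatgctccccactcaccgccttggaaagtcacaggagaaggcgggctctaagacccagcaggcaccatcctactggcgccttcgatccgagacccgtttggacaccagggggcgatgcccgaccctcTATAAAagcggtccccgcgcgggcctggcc
Ifng: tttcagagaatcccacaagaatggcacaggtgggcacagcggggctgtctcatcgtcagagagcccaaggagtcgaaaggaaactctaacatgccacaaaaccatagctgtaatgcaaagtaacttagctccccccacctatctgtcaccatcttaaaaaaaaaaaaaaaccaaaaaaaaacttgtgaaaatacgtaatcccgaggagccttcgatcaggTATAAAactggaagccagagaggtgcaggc
Il6: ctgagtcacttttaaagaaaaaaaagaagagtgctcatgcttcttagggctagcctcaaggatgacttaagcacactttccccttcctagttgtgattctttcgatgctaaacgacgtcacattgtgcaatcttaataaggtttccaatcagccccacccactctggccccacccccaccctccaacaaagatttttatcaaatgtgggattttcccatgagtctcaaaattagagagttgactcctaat

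The enzyme at which the study's inhibitor is aimed was expressed at a low level. Nat10, which acetylates cytidine in RNA, stood at 2.51, 2.74 and 2.22 FPKM (mean 2.49 ± 0.261), and its partner for transfer RNA, Thumpd1, at 8.18, 5.80 and 7.60 FPKM (mean 7.19 ± 1.24). Thumpd1 was above Nat10 in every library, by 2.12 to 3.42 times. Both lie within 3 times the median expressed protein-coding gene of 6.91 FPKM. Of 17 cell cycle genes 15 were expressed, led by the replication clamp Pcna at 75.0, 96.8 and 85.6 FPKM, and the mitotic kinase gene Cdk1 stood at 4.66, 5.27 and 6.01 FPKM.

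Levels were close between libraries for most genes. The median coefficient of variation (CV) of the 8218 expressed protein-coding genes was 13.8%, against 4.15% from counting error alone, and it was 7.41% with library 1 left out. For 81.8% of these genes the highest library was within 1.5 times the lowest, and for 1.53%, 126 genes, it was above 2 times. The deviation of library 1 went with gene length. In the shortest quintile of genes, 243 to 2331 bases, its median log2 deviation from the gene mean was -0.22, and in the longest quintile, 6732 to 32385 bases, it was 0.18. The corresponding medians were 0.08 and -0.07 in library 2, and 0.13 and -0.12 in library 3. Each gene mean is taken over the same 3 libraries, so the opposite trends are not separate observations. Short transcripts such as Tyrobp and Lyz2 were lowest in library 1 and long ones such as Lrp1 and Fn1 highest, and the part of length in any single gene was not tested. Fn1, the matrix protein fibronectin with a length of 11685 bases, stood at 69.8, 38.1 and 36.0 FPKM.

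Among 3316 protein-coding genes with a mean of 10 FPKM or more, Gapdh varied most. This glycolytic enzyme, often taken as a reference gene, stood at 1.17, 16.1 and 53.6 FPKM, with 97, 1235 and 4081 reads. The 269 pseudogene entries described as Gapdh held 1534, 1296 and 1192 reads in all, so gene and copies did not move together. The sources used here do not say how reads matching several copies were counted, and the Gapdh level is uncertain. Pgk1, another glycolytic enzyme, stood at 157, 181 and 201 FPKM.

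Mitochondrially encoded genes made up 9 of the 15 most variable, and all 9 were highest in library 2 and lowest in library 3. The complex I gene mt-Nd1 stood at 458, 1168 and 437 FPKM and mt-Nd4 at 112, 261 and 76.2 FPKM. Their class took 0.465, 0.687 and 0.339% of reads, and mt-Co1, the highest of the mitochondrially encoded cytochrome oxidase genes (1432, 2185 and 1232 FPKM), was 60.9 to 75.0 times mt-Co3. How reads matching several places in the genome were counted is not given, so these mitochondrial shares, levels and ratios are uncertain. The remaining genes among the 15 were Lars2, the mitochondrial leucyl-tRNA synthetase (28.1, 16.8 and 45.4 FPKM), Rps27a, a ubiquitin-ribosomal fusion gene (167, 189 and 357 FPKM), Zfyve19, Glipr2 and Fn1. At the other end, the kinesin Kif1c stood at 63.7, 63.5 and 63.6 FPKM, chosen here after its values were seen.

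**Figure D5:**
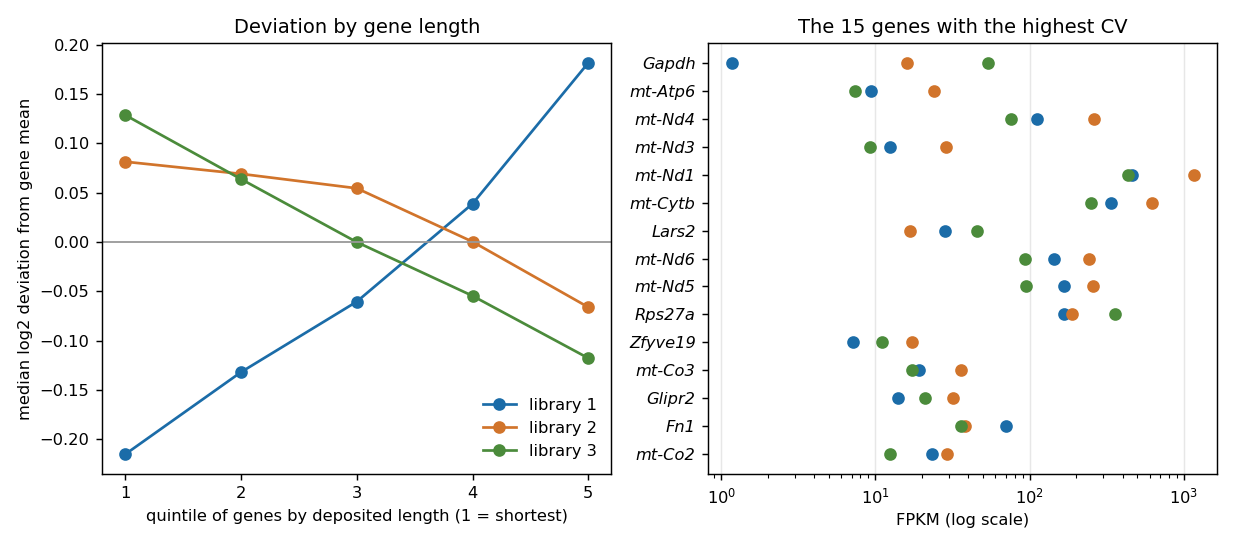
Left, the median log2 deviation of each untreated library from the gene mean, by quintile of expressed protein-coding genes ordered by length, which rises from -0.22 to 0.18 in library 1 and falls in the others. The deviations of the 3 libraries are tied to each other through that mean. Right, FPKM (log scale) of the 15 protein-coding genes with the highest CV among those with a mean of 10 FPKM or more, 1 point per library; Gapdh runs from 1.17 to 53.6 FPKM.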

How the data were processed

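RNA from cultured peritoneal macrophages was extracted with Trizol and made into libraries by Illumina protocols, per the labels' protocols. The submitters' processing notes list CASAVA 1.8, HISAT2 2.0.5 and featureCounts 1.5.0-p3 without a role or order. The sources used here do not give the genome build, the strand setting or the treatment of reads matching several genes, and no coordinates of the deposited table are printed. The authors' deposited table gives a raw read count and an FPKM value per gene and library, per the file headers. The deposited FPKM equalled the count divided by gene length and 1 constant per library (20111615, 18580093 and 18436853 fragments), which is 1.12, 0.957 and 0.964 times the counted total, so it is a scaled and not the raw total.

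Levels, counts of genes and spreads were computed with Python 3.11.15 and pandas 2.3.3. TMM totals (edgeR 4.0.16) and DESeq2 1.42.0 size factors served only as scaling alternatives, with TPM, other thresholds and each library left out. Summaries of the spread were tested on simulated counts. The 48 gene lists held 908 symbols, of which 900 matched; a symbol with several entries kept the entry with most reads. Members and lists were chosen with earlier results of these data known. Named genes were the 20 protein-coding genes highest in mean FPKM with an established symbol, the 4 markers, up to 6 leading members and the members without a read of each list described, the 15 most variable genes with a mean of at least 10 FPKM, Nat10 and Thumpd1, and some genes that this rule names are left out here. Other genes named were taken from the lists, or from outside them, after their values were seen. Promoter sequences are from RefSeq on GRCm38.p6. Floors of 3 reads cover counting error only.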

Additional observations from a re-analysis of the deposited data

How the results depend on the processing

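No paired analysis was possible because the levels come from no test and from 1 group. The count of 8218 expressed protein-coding genes fell to 4529 at 5 FPKM, was 9623 with TPM, and ran from 8281 to 8409 with each library left out. The count of 447 genes at 100 FPKM became 1056 with TPM, whose values are 2.19 to 2.75 times FPKM here, and ran from 449 to 537 with each library left out. Of the list members, 434 were expressed, against 274 at 5 FPKM. The 100 leading genes took 37.6% of reads when ranked by read count, and 72 of the 100 highest protein-coding genes by FPKM were shared with that order. The median CV of 13.8% ran from 7.41% to 13.98% with each library left out, the lowest being without library 1. No protein-coding gene at 1 FPKM in all libraries had under 10 reads in any. Depth limits statements on absent genes to the floors given.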

Other observations

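Further gene groups, taken by the start of their symbols after the data were seen, describe the machinery of these cells. Of 26 vacuolar ATPase genes, the pump that acidifies lysosomes, 17 were expressed (65.4%, against 37.6% of all protein-coding genes). In every library 10 of the 26 reached 100 FPKM, against 2.04% of all protein-coding genes. Proteasome subunits were expressed in 38 of 40 cases (95%, against the same 37.6%) and nuclear-encoded complex I subunits in 37 of 39 (94.9%). All 20 cytosolic aminoacyl-tRNA synthetases were expressed. Solute carriers were expressed in 149 of 376 cases (39.6%), near the share of all protein-coding genes. Slc11a1, the phagosomal metal transporter NRAMP1, stood at 196, 223 and 213 FPKM, while Slc40a1, the iron exporter ferroportin, stood at 0.199, 0.221 and 0.259 FPKM beside the abundant ferritin chains. Of 3 genes of lipid handling picked after their values were seen, Fabp5, a fatty acid carrier, stood at 1115, 1621 and 1495 FPKM, the lipid droplet coat Plin2 at 538, 638 and 774 FPKM, and the lipoprotein lipase Lpl at 124, 116 and 82.8 FPKM.

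Some values stand out on their own. The nuclear RNA Malat1, often among the most abundant long non-coding RNAs, stood at 8.05, 6.17 and 4.16 FPKM, and Neat1 at 4.15, 2.21 and 2.60 FPKM. Xist, the RNA of the inactive X chromosome, had no read, and the Y-linked genes Ddx3y and Eif2s3y had 137, 96 and 57 reads and 134, 105 and 54 reads. The ribosomal RNA entry Rn18s-rs5 took 0.839, 0.978 and 2.14% of reads.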
